A study of Mustela putorius furo with 2 samples.

Results

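The genes described here are CCN2, NXPH4 and NR4A2, which mark layer 6b and subplate neurons in the cortex of other mammals. They were chosen by symbol, as the rows of the deposited gene tables named CCN2, NXPH4 or NR4A2. All 3 were present, with 1 row each, among 28156 genes, of which 14296 carry a symbol. The identifiers are ENSMPUG00000014704 for CCN2, ENSMPUG00000001769 for NXPH4 and ENSMPUG00000000438 for NR4A2. No coordinates are given because the genome build of the files is not given in the sources used here. In the RefSeq gene table of the ferret (assembly ASM1176430v1.1), none of the 40 neighbouring genes examined for each overlapped it.

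Subplate neurons are among the earliest-born neurons of the cortex. They lie below the cortical plate, receive early thalamic input and guide thalamic axons, and many die after birth. Those that survive form layer 6b, a thin sheet between layer 6 and the white matter, and in carnivores and primates also the interstitial neurons of the white matter. CCN2, or connective tissue growth factor, is a secreted matrix-associated protein that fibroblasts, mural cells and other cells make under the control of the YAP and TEAD factors. NXPH4 is a neurexophilin, a secreted glycoprotein that binds alpha-neurexins. NR4A2, or Nurr1, is an orphan nuclear receptor that marks claustrum and dopamine neurons as well as subplate neurons, and its family contains activity-induced genes.

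RNA of single nuclei was counted by 10x Genomics sequencing in frozen somatosensory cortex of ferrets (Mustela putorius furo). There were 2 libraries, 1 from tissue labelled as the upper band of the cortex and 1 from its deeper band, and both carry the genotype label DCX knockout, although the series text speaks of a knockdown. The sample titles number them as replicates 1 and 2 of a mutant, while their region labels differ, and the region labels were used here. The product of DCX, doublecortin, binds microtubules in migrating neurons, and its loss can leave a band of misplaced neurons below the cortex. Age, sex and number of animals are not given in the labels, and tissue of wild-type animals was not analysed here. Library, animal and band cannot be told apart. There was 1 library per band, so nothing below was checked by replicates.

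The upper-band library held 66253015 UMIs (unique molecular identifiers, each counting 1 captured RNA molecule) over 7151 barcodes, and the deeper-band library 78352064 over 9694. DCX itself had 5138 and 6083 UMIs, or 77.6 CPM in both libraries. CPM means UMIs scaled to the same total, here that of the library and below that of the group of nuclei named. A count over the whole gene does not check an edit that leaves the transcript in place. After filters, 6261 and 8150 nuclei remained, of which 3185 and 3453 were excitatory-like, and these had median depths of 10749 and 10401 UMIs. All class names mean resemblance by marker genes. The libraries shared 24 barcode sequences, and the excitatory nuclei among them held 0 UMIs of CCN2, NXPH4 or NR4A2.

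All 3 genes were sparse, and their distributions over the classes differed. CCN2 was highest in vascular-like nuclei, NXPH4 had most of its UMIs in excitatory nuclei and within them in 2 subclusters, and NR4A2 was spread over neurons and glia with 2 peaks among excitatory subclusters. Over all kept nuclei CCN2 had 289 UMIs in the upper band against 116 in the deeper band. NXPH4 had 77 and 68, and NR4A2 had 397 and 416. The intervals below are 95% intervals that cover counting error only.

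For CCN2, vascular-like nuclei held 108 of 289 UMIs in the upper band (37.4%, exact binomial interval 31.8% to 43.2%) while giving 0.919% of all UMIs there. In the deeper band they held 17 of 116 UMIs (14.7%, 8.78% to 22.4%). The CPM level in vascular-like nuclei was 224.6 in the upper band (exact Poisson interval 184.3 to 271.2) against 75.3 in the deeper band (43.9 to 120.6). The nucleus with the most CCN2 held 14 of the 108 upper-band UMIs, and that of the deeper band 4 of 17. Without these nuclei the levels were 196.4 CPM (158.7 to 240.4) and 57.9 CPM (30.8 to 99.0), an alternative added after seeing the data. Excitatory nuclei were at the other end, with 2.03 CPM (1.60 to 2.55) and 0.995 CPM (0.704 to 1.37). Inhibitory-like nuclei stood between them at 7.34 CPM (5.64 to 9.40) and 5.70 CPM (3.97 to 7.93). In CPM, the excitatory level did not exceed that of oligodendrocyte-like nuclei, 7.53 CPM (4.38 to 12.1) and 2.48 CPM (1.32 to 4.24), which stand in here for free RNA in the droplets.

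NXPH4 lay mainly in the excitatory class. Excitatory nuclei held 69 of its 77 UMIs in the upper band (89.6%, 80.6% to 95.4%) against 57 of 68 in the deeper band (83.8%, 72.9% to 91.6%). They gave 71.4% and 71.6% of all UMIs. Their NXPH4 level was 1.85 CPM (1.44 to 2.34) in the upper band against 1.49 CPM (1.13 to 1.93) in the deeper band. Inhibitory-like nuclei had 1 UMI of NXPH4 in each band, which is 0.117 and 0.163 CPM, so among the neurons the gene was concentrated in the excitatory class. Oligodendrocyte-like nuclei had 2 and 7 UMIs, with intervals of 0.107 to 3.20 CPM and 0.537 to 2.75 CPM that overlap those of the excitatory class as a whole.

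NR4A2 was less selective. Excitatory nuclei held 75.8% of its UMIs in the upper band (71.3% to 80.0%) against 79.1% in the deeper band (74.9% to 82.9%). Their level was 8.06 CPM (7.17 to 9.02) and 8.61 CPM (7.71 to 9.60). Astrocyte-like nuclei had 16.6 CPM (10.1 to 25.6) and 13.6 CPM (8.95 to 19.8), but 1 nucleus held 9 of their 20 upper-band UMIs. Without it the upper-band level was 9.14 CPM (4.56 to 16.3), an alternative added after seeing the data. Oligodendrocyte-like nuclei had 9.74 CPM (6.10 to 14.7) and 7.25 CPM (5.13 to 9.96). Inhibitory-like nuclei were lower than excitatory nuclei in both bands, at 3.38 CPM (2.26 to 4.86) and 2.28 CPM (1.25 to 3.83), with intervals that do not overlap. Free RNA can give such glial levels: SLC17A7, the vesicular glutamate transporter of excitatory neurons, stood at 52.2 and 51.2 CPM in oligodendrocyte-like nuclei against 66.4 and 89.4 CPM in excitatory nuclei. How much of the glial NR4A2 comes from it was not tested. Microglia-like nuclei, 47 and 66 in number, had 0 UMIs of NXPH4 and NR4A2 and 1 and 0 of CCN2, and a count of 0, given a limit of 3 counts here and below, allows up to 36.7 and 35.9 CPM there.

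**Figure D1:**
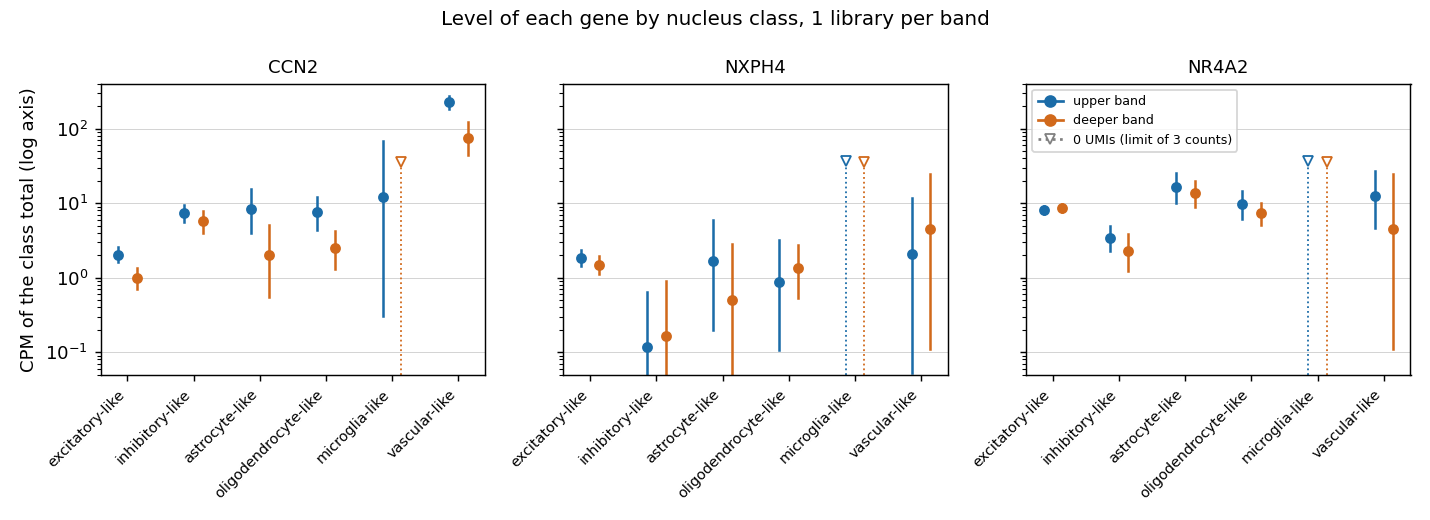
Level of CCN2, NXPH4 and NR4A2 (CPM of the class total, log axis) in 6 nucleus classes, with the upper band in blue and the deeper band in orange. Points are sums over the nuclei of 1 library with 95% Poisson intervals, and open triangles give the limit of 3 counts where no UMI was counted; CCN2 peaks in vascular-like nuclei at 224.6 and 75.3 CPM.

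A CCN2 UMI was found in 18.8% of upper-band vascular-like nuclei (14.2% to 24.1%) and in 5.81% of those in the deeper band (2.69% to 10.7%), at median depths of 1136 and 1120 UMIs. In excitatory nuclei the shares were 2.26% (1.77% to 2.84%) and 1.10% (0.780% to 1.51%). In oligodendrocyte-like nuclei, whose median depths were 2250 and 1922, they were 1.84% and 0.515%. Thinning each nucleus to 1500 UMIs put the excitatory shares at 0.221% and 0.0870%, below the oligodendrocyte-like shares of 1.19% and 0.434%. This thinning left out 17 and 6 excitatory nuclei and 84 and 451 oligodendrocyte-like nuclei. The thinned excitatory CCN2 shares were thus not above the oligodendrocyte-like ones. Oligodendrocyte-like nuclei are much shallower, so free RNA can be a larger part of their UMIs, and thinning keeps that part. This comparison therefore cannot set the background of excitatory nuclei.

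NXPH4 was seen in 1.82% (1.39% to 2.35%) of the excitatory nuclei of the upper band against 1.42% (1.05% to 1.87%). The oligodendrocyte-like shares were 0.216% and 0.277%. At 1500 UMIs the excitatory shares were 0.347% and 0.0870% against 0.119% and 0.241%, a level of 1 to 11 nuclei that allows no reading of an order. NR4A2 was seen in 7.41% (6.52% to 8.38%) and 7.10% (6.26% to 8.003%) of excitatory nuclei and in 2.27% and 1.47% of oligodendrocyte-like nuclei. At 1500 UMIs its shares were 1.26% and 1.19% in excitatory nuclei and 1.66% and 1.01% in oligodendrocyte-like nuclei. For the excitatory class as a whole, then, the NR4A2 shares at that depth did not stand above the oligodendrocyte-like ones. Inhibitory-like shares at 1500 UMIs were lower, at 0.497% (0.162% to 1.16%) and 0.394% (0.0813% to 1.15%). They rest on 5 and 3 nuclei, and their intervals overlap the excitatory ones of 0.903% to 1.71% and 0.855% to 1.61%.

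Excitatory nuclei fell into 21 subclusters, made without CCN2, NXPH4 or NR4A2 among the clustering genes, so the levels of these genes did not form them. NXPH4 was concentrated in subclusters 3 and 10. Subcluster 3 is deep-layer-like and led by GFRA1, a receptor subunit for glial-derived neurotrophic factor, the calcium channel TRPC7, the cadherin CDHR1 and the serotonin receptor HTR4. It held 20 NXPH4 UMIs in the upper band, or 23.6 CPM (14.4 to 36.4), and 31 in the deeper band, or 34.8 CPM (23.6 to 49.4). Subcluster 10 is also deep-layer-like, with the relaxin receptor RXFP1 and the layer 6 genes FOXP2 and SYT6 among its leading genes. It held 41 and 14 NXPH4 UMIs, or 12.7 CPM (9.14 to 17.3) and 14 CPM (7.65 to 23.5). All remaining excitatory nuclei together had 8 and 12 UMIs, or 0.240 CPM (0.104 to 0.474) and 0.331 CPM (0.171 to 0.577).

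A UMI of NXPH4 was found in 17.4% (10.3% to 26.7%) of subcluster 3 nuclei in the upper band against 26.9% (18.2% to 37.1%) in the deeper band. In subcluster 10 the shares were 10.1% (7.11% to 13.9%) and 11.5% (6.11% to 19.3%). These stand far above the oligodendrocyte-like shares of 0.216% and 0.277%, although those nuclei are shallower. Thinned to 1500 UMIs per nucleus, subcluster 3 had 5.49% (1.81% to 12.4%) and 4.30% (1.18% to 10.7%), with intervals above the oligodendrocyte-like ones (0.00301% to 0.660% and 0.0784% to 0.562%). Subcluster 10 had 2.42% (1.05% to 4.72%) after thinning in the upper band, but 0 of 104 nuclei in the deeper band, which allows up to 2.88%, so at that depth its deeper-band share cannot be set above the oligodendrocyte-like one. Within the pair of subclusters the level did not differ between bands beyond counting error: the log2 ratio of deeper over upper band was 0.56 (-0.30 to 1.45) in subcluster 3 and 0.14 (-0.85 to 1.04) in subcluster 10.

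NR4A2 peaked elsewhere. Its highest level was in subcluster 20, a group of only 16 and 19 nuclei that stayed unnamed by the marker rule. It had 31 UMIs there in the upper band, or 183.3 CPM (124.5 to 260.1), and 33 in the deeper band, or 159.1 CPM (109.5 to 223.5). In that subcluster 14 of 16 and 16 of 19 nuclei had an NR4A2 UMI, or 87.5% (61.7% to 98.5%) and 84.2% (60.4% to 96.6%). These nuclei were 0.502% and 0.550% of excitatory nuclei and held 10.3% and 10.0% of the excitatory NR4A2 UMIs.

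The second peak of NR4A2 was subcluster 3, where it overlapped with NXPH4. It had 33 UMIs in the upper band, or 38.9 CPM (26.8 to 54.6), and 49 in the deeper band, or 55.0 CPM (40.7 to 72.7). A UMI was found in 25.0% (16.6% to 35.1%) and 34.4% (24.9% to 44.98%) of its nuclei. The log2 ratio of levels between bands was 0.50 (-0.17 to 1.18). In the deeper band 1 nucleus held 8 of the 49 UMIs. Without it the deeper-band level was 46.6 CPM (33.5 to 63.3) and the ratio 0.26 (-0.43 to 0.97), an alternative added after seeing the data. Thinned to 1500 UMIs the shares of subcluster 3 were 5.49% (1.81% to 12.4%) and 7.53% (3.08% to 14.9%), and those of subcluster 20 were 31.2% (11.02% to 58.7%) and 5.26% (0.133% to 26.03%). The oligodendrocyte-like intervals of 0.912% to 2.77% and 0.628% to 1.54% overlapped with the upper-band one of subcluster 3 and the deeper-band one of subcluster 20. In the other excitatory nuclei, outside subclusters 3 and 20, NR4A2 stood at 6.52 CPM (5.72 to 7.41) and 6.66 CPM (5.85 to 7.54). Subcluster 10 was not raised for NR4A2, with 4.97 CPM (2.84 to 8.07) and 2.00 CPM (0.242 to 7.22).

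CCN2 was thin in every excitatory subcluster. Its highest levels over both bands, in subclusters 20 and 3, rest on 4 and 8 UMIs in the upper band against 2 and 4 in the deeper band. For subcluster 3 that is 9.43 CPM (4.07 to 18.6) and 4.49 CPM (1.22 to 11.5), with intervals that overlap those of oligodendrocyte-like nuclei. For subcluster 20 it is 23.6 CPM (6.44 to 60.6) and 9.65 CPM (1.17 to 34.8). Of the vascular markers in subcluster 3, the fibroblast genes DCN, COL1A2, LUM and FOXC1 were at 0 UMIs in both bands. The summed level of all 16 vascular markers was nonetheless higher there, at 163.8 and 226.6 CPM against 73.0 and 52.1 CPM in excitatory nuclei outside subclusters 3, 10 and 20. FLT1, a VEGF receptor, gave 74.2 and 122.3 CPM of it on 63 and 109 UMIs. The part of vascular RNA in the CCN2 counts of subcluster 3 was not tested beyond this.

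**Figure D2:**
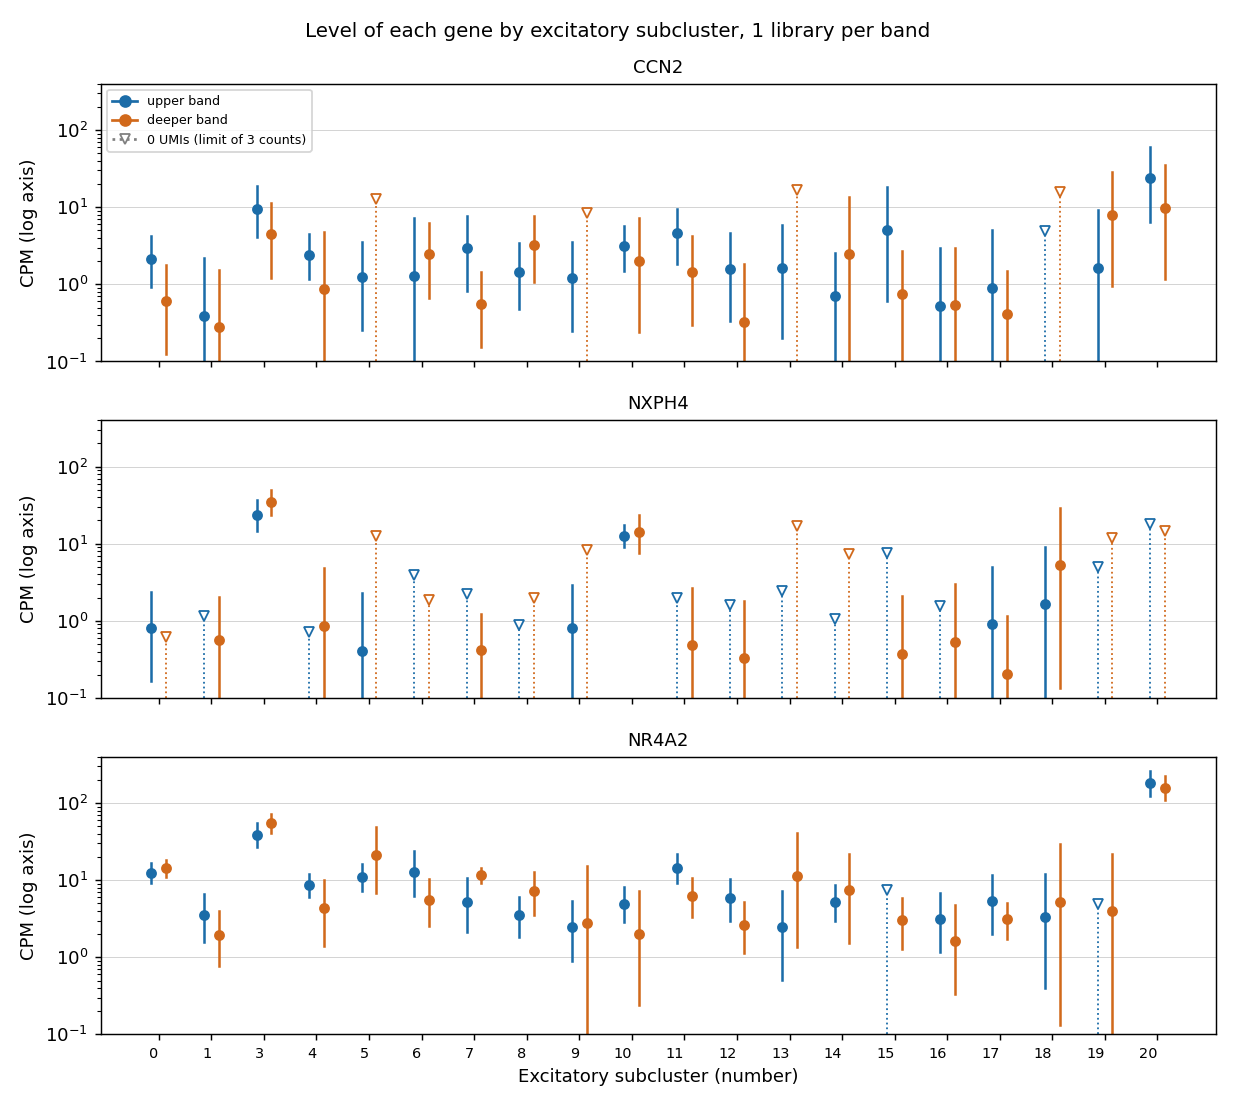
Level of CCN2, NXPH4 and NR4A2 (CPM, log axis) in the excitatory subclusters with at least 30 nuclei over both bands, numbered on the x axis, with 95% Poisson intervals and open triangles for the limit of 3 counts where no UMI was counted. NXPH4 stands out in subclusters 3 and 10 and NR4A2 in subclusters 20 and 3, in both bands.

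The genes most like each member over the subclusters were sought by the lower of 2 Pearson correlations, 1 per library, of log2(CPM + 1) over 18 upper-band and 13 deeper-band subclusters of at least 50 nuclei. Among 10027 genes those closest to NXPH4 included KIT (0.89 and 0.91), ABI3BP (0.88 and 0.94), FGD5 (0.84 and 0.96) and ASB5 (0.84 and 0.87). Outside subclusters 3 and 10 NXPH4 had only 8 and 12 UMIs, so these correlations rest mainly on that pair of subclusters. KIT, a receptor tyrosine kinase, stood at 16.5 and 11.2 CPM in subcluster 3, at 16.5 and 35.0 CPM in subcluster 10, and at 0.302 and 0.166 CPM in excitatory nuclei outside subclusters 3, 10 and 20. In subcluster 20, which has no NXPH4 UMI and is too small to enter, KIT had 7 and 4 UMIs. For NR4A2 they included COL13A1 (0.68 and 0.75), ADAMTS6 (0.66 and 0.66), EIF3A (0.67 and 0.65) and EFEMP1 (0.65 and 0.65). COL13A1, a transmembrane collagen, had 38.9 and 67.3 CPM in subcluster 3 and 0 UMIs in subcluster 20. For CCN2 they were ABHD16A (0.81 and 0.84), CEP112, SLC12A1, SOCS6 and PLPPR5, but with so few CCN2 UMIs this list is no finding. These are descriptions over subclusters that share a library and its depth.

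Other genes of the subplate and layer 6b were also high in subcluster 3, though not all of them only there. Of 14 such genes listed beside the members, 12 were in the gene tables, and CPLX3 and HTR1D were not matched. In subcluster 3, 8 of the 12 had at least 10 UMIs in both bands, and 6 of the 12 had at least 10 UMIs and at least 2 times the level of excitatory nuclei outside subclusters 3, 10 and 20 in both bands: CDH10, GABRA5, HCRTR2, KCNAB1, SEMA3E and TMEM163. Of all 7485 genes with at least 10 UMIs of subcluster 3 in both bands, 5.37% passed this rule. Since these genes could enter the clustering, this is a description and not a test.

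HCRTR2, the orexin receptor 2, stood at 285.1 and 366.9 CPM in subcluster 3 against 31.3 and 25.4 CPM in those other excitatory nuclei. SEMA3E, an axon-guidance semaphorin, stood at 1023.9 and 1093.9 CPM against 172.9 and 46.4 CPM. KCNAB1, a potassium channel subunit, stood at 658.6 and 713.6 CPM against 224.8 and 157.1 CPM. SEMA3E was also among the 10 leading genes of subcluster 4, and HCRTR2 among those of subcluster 11, so neither was particular to subcluster 3. Not every subplate gene followed. MOXD1, a monooxygenase-like gene of rodent subplate, had 2 and 0 UMIs in subcluster 3, LPAR1, a lysophosphatidic acid receptor, 0 and 1, and TRH, the thyrotropin-releasing hormone precursor, 0 in both bands.

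Of the 9 corticothalamic genes of layer 6 in the gene tables, 5 had at least 10 UMIs in both bands of subcluster 3, and 4, FOXP2, NFIA, TLE4 and ZFPM2, passed the same rule there. ZFPM2, a zinc-finger cofactor, stood at 4070.8 and 4281.5 CPM against 556.0 and 199.0 CPM. In subcluster 10 the rule was passed by 5 of the 9, FOXP2, SYT6, TBR1, TLE4 and ZFPM2, and by 2 of the 12 subplate genes, CDH18 and SEMA3E, where 3.56% of 8507 genes with enough UMIs passed it. FOXP2, a forkhead factor of corticothalamic neurons, separated the pair, with 63.6 and 65.1 CPM in subcluster 3 and 196.1 and 172.0 CPM in subcluster 10. HCRTR2 separated them the other way, with 13.1 and 23.0 CPM in subcluster 10. All the corticothalamic genes that passed the rule were also among the markers that named both subclusters deep-layer-like. They could also enter the clustering, so these counts are a description and not a test.

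Subcluster 20, the NR4A2 peak, carried a different list. Of 7 genes of layer 6 intratelencephalic and claustrum neurons, 5 had at least 10 UMIs in both bands. These 5 passed the rule: GNB4, LXN, NTNG2, OPRK1 and SYNPR. Of 3064 genes with enough UMIs, 6.43% did. GNB4 and LXN were among the 10 leading genes of subcluster 20, and list genes could enter the clustering. The count is thus a description and not a test. Of 5 near-projecting genes, 2 had enough UMIs and 1 passed, TLL1, the first leading gene of subcluster 20. Of the 12 subplate genes, 6 had enough UMIs there and 0 passed. LXN, the carboxypeptidase inhibitor latexin, stood at 206.9 and 159.1 CPM against 2.63 and 2.08 CPM in the other excitatory nuclei. NTNG2, the membrane-anchored netrin-G2, stood at 597.1 and 385.8 CPM against 35.7 and 30.9 CPM. The level of NXPH4 there was 0 UMIs in both bands, which allows up to 18.8% and 15.8% of its nuclei to carry a UMI. Astrocyte markers summed to 260.1 and 279.7 CPM in subcluster 20 and 355.3 and 386.9 CPM in those other excitatory nuclei. The sums were higher in subcluster 3, at 954.4 and 871.8 CPM, and in subcluster 10, at 844.9 and 723.9 CPM. In subcluster 10 SLC4A4, a bicarbonate transporter, carried 516.8 and 477.9 CPM of it. In subcluster 3 SLC1A2, a glutamate transporter, carried 827.1 and 795.5 CPM, while GFAP was at 0 UMIs in both bands and AQP4 at 0 and 1.

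**Figure D3:**
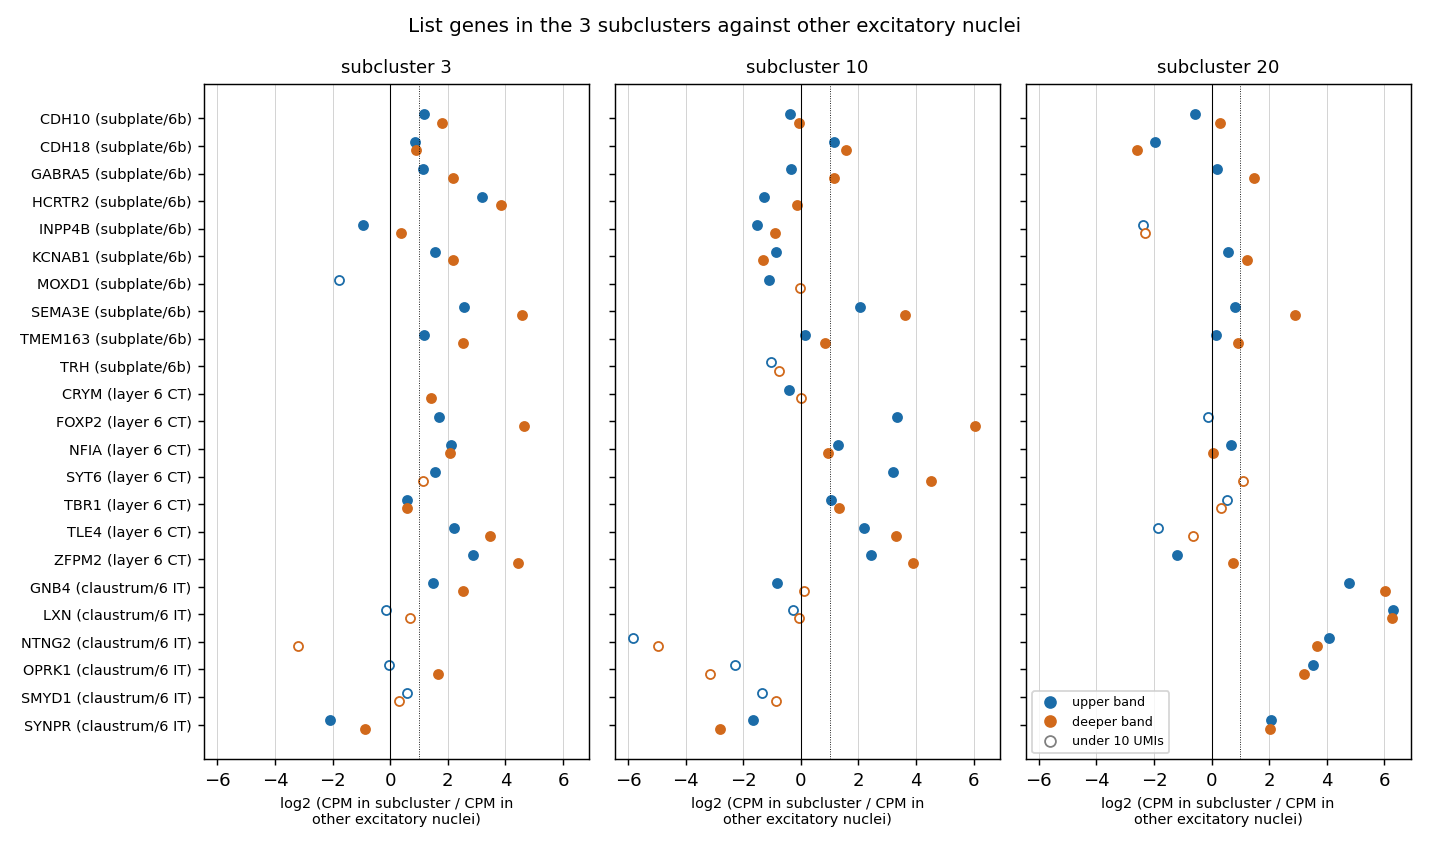
Log2 ratio of the level in subclusters 3, 10 and 20 over that in excitatory nuclei outside them, for list genes with at least 50 UMIs in the latter, by band; open circles rest on under 10 UMIs and genes at 0 UMIs have no point. Subplate genes such as HCRTR2 and SEMA3E lie right of the dotted line (2 times) in subcluster 3, and LXN, NTNG2 and GNB4 do so in subcluster 20.

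Subcluster 3 took nearly the same share of excitatory nuclei in both bands, unlike the remaining deep-layer-like nuclei. It held 92 of 3185 excitatory nuclei in the upper band (2.89%, 2.34% to 3.53%) against 93 of 3453 in the deeper band (2.69%, 2.18% to 3.29%). The log2 ratio of the shares was -0.10 (-0.51 to 0.31). The other 5 deep-layer-like subclusters together made up 33.1% of upper-band excitatory nuclei but 5.71% of deeper-band ones. Subcluster 10 alone had 10.5% (9.503% to 11.7%) and 3.01% (2.47% to 3.64%), and its log2 ratio was -1.81 (-2.12 to -1.50). Subcluster 3 made up 8.03% (6.53% to 9.76%) of deep-layer-like nuclei in the upper band against 32.1% (26.7% to 37.8%) in the deeper band. Subcluster 20 also had like shares, 0.502% (0.287% to 0.815%) and 0.550% (0.332% to 0.858%).

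**Figure D4:**
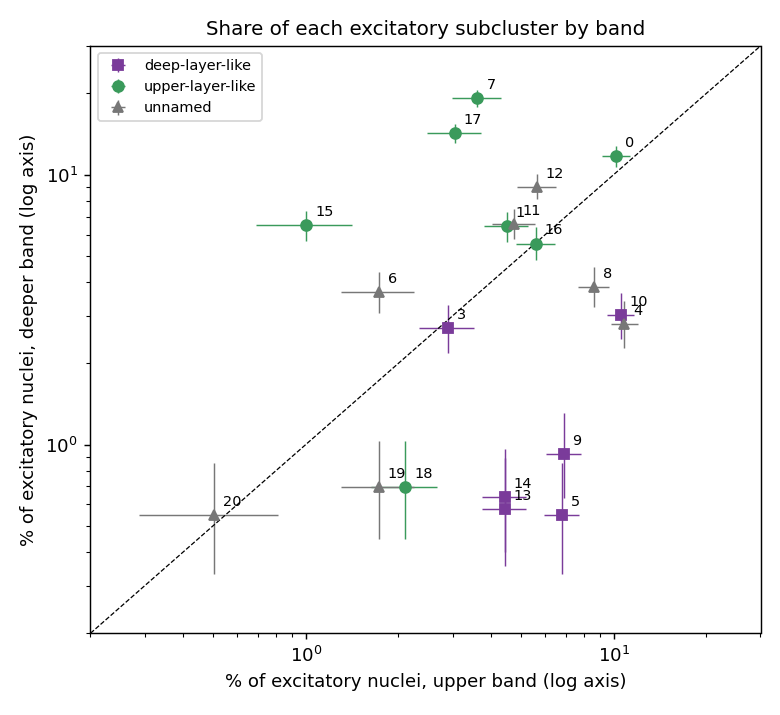
Share of excitatory nuclei in each subcluster with at least 30 nuclei, in the upper band (x axis) and the deeper band (y axis), on log axes with 95% binomial intervals and the line of equal shares. Subclusters 3 (2.89% and 2.69%) and 20 lie on the line, while the other deep-layer-like subclusters lie below it.

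The place of the NXPH4 UMIs differed likewise between the bands. In the upper band 59.4% (46.9% to 71.1%) of its excitatory UMIs lay in subcluster 10 and 29.0% (18.7% to 41.2%) in subcluster 3. In the deeper band 24.6% (14.1% to 37.8%) lay in subcluster 10 and 54.4% (40.7% to 67.6%) in subcluster 3. Deep-layer-like subclusters as a whole held 92.8% (83.9% to 97.6%) and 78.9% (66.1% to 88.6%) of its excitatory UMIs. Its level over all deep-layer-like nuclei was 4.92 CPM (3.79 to 6.28) in the upper band against 14.6 CPM (10.7 to 19.6) in the deeper band. That is a log2 ratio of 1.57 (0.99 to 2.15), although neither subcluster alone differed beyond counting error. In the same nuclei NR4A2 had 7.68 CPM (6.25 to 9.34) and 20.2 CPM (15.5 to 25.9), a log2 ratio of 1.39 (0.91 to 1.86). Here too no deep-layer-like subcluster alone differed beyond counting error. Subcluster 3, the richest of them in NR4A2, gave 0.50 (-0.17 to 1.18), and the others ranged from -1.31 in subcluster 10 to 2.18 in subcluster 13. Subcluster 3 was 8.03% of upper-band deep-layer-like nuclei but 32.1% of deeper-band ones. How much of the pooled NR4A2 ratio comes from this share was not tested.

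NR4A2 had only 33.2% (27.9% to 38.9%) and 18.8% (14.8% to 23.5%) of its excitatory UMIs in deep-layer-like subclusters. Upper-layer-like subcluster 7, led by SYT10 and ANGPT1, held 2.33% (0.94% to 4.73%) of them in the upper band against 25.2% (20.6% to 30.3%) in the deeper band while making up 3.61% and 19.2% of excitatory nuclei. Its NR4A2 level was 5.24 CPM (2.105 to 10.8) and 11.7 CPM (9.29 to 14.5), a log2 ratio of 1.16 (0.05 to 2.51). In the deeper band 1 nucleus held 13 of its 83 UMIs. Without that nucleus the ratio was 0.91 (-0.21 to 2.28), an interval that spans 0. The upper-band level rests on only 7 UMIs. CCN2 had 36.8% (26.1% to 48.7%) and 18.4% (7.74% to 34.3%) of its excitatory UMIs in deep-layer-like subclusters, which held 35.9% and 8.40% of the excitatory nuclei.

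Between the bands, over excitatory nuclei as a whole, CCN2 was lower in the deeper band and the other pair showed no difference beyond counting error. The log2 ratio of deeper over upper band was -1.03 (-1.63 to -0.45) for CCN2, -0.31 (-0.84 to 0.22) for NXPH4 and 0.10 (-0.13 to 0.33) for NR4A2. Thus 1 of 3 members was at least 1.5-fold lower and 0 of 3 at least 1.5-fold higher. Of 15553 genes with at least 50 UMIs in excitatory nuclei, 7.68% were at least 1.5-fold lower and 4.2% at least 1.5-fold higher, with a median log2 ratio of -0.03. As shares of nuclei with a UMI the log2 ratios were -1.04 (-1.60 to -0.48) for CCN2, -0.36 (-0.90 to 0.18) for NXPH4 and -0.06 (-0.31 to 0.19) for NR4A2. The lower CCN2 level was not seen in deep-layer-like nuclei, with 2.15 and 2.28 CPM on 28 and 7 UMIs. Their log2 ratio was 0.08 (-1.36 to 1.31), against -1.49 (-2.655 to -0.36) in upper-layer-like nuclei and -0.44 (-1.37 to 0.44) in unnamed excitatory ones.

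A lower CCN2 was also measured outside excitatory nuclei. In oligodendrocyte-like nuclei the log2 ratio was -1.60 (-2.76 to -0.47), in astrocyte-like nuclei -2.04 (-4.17 to -0.25), and in vascular-like nuclei -1.58 (-2.41 to -0.83). Inhibitory-like nuclei gave -0.36 (-1.004 to 0.25). In all kept nuclei the ratio was -1.34 (-1.67 to -1.03). The part of free RNA in these ratios was not tested.

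Within vascular-like nuclei, the fibroblast genes DCN and COL1A2 and the smooth muscle gene ACTA2 were lower along with CCN2. Of 3600 genes with at least 50 UMIs there, 20.8% were at least 1.5-fold lower and 15.5% at least 1.5-fold higher in the deeper band. Differences past 1.5-fold were thus common in this small class of 261 and 155 nuclei. The log2 ratio of CCN2, -1.58, was larger than most, below the 5th percentile of -1.435. DCN, the matrix proteoglycan decorin, had a log2 ratio of -1.23 (-1.91 to -0.60), and COL1A2, a chain of type I collagen, -1.30 (-2.60 to -0.19). LUM, the proteoglycan lumican, had -0.97 (-2.54 to 0.35), and COL1A1 had 1 and 0 UMIs. ACTA2, the actin of smooth muscle, had 141 UMIs against 1. The endothelial genes PECAM1 and VWF had log2 ratios of -0.06 (-0.66 to 0.52) and -0.11 (-0.48 to 0.26), and FLT1 was higher at 0.69 (0.50 to 0.88). The pericyte genes PDGFRB and RGS5 had 0.57 (-0.13 to 1.25) and 0.28 (-0.43 to 0.96). The makeup of this class therefore moved with CCN2, and fewer CCN2-expressing cells cannot be told apart from less CCN2 per cell.

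The nuclei that carried CCN2 were rich in DCN and, in the upper band, ACTA2. In the upper band 49 vascular-like nuclei had a CCN2 UMI and 212 did not. DCN stood at 535.6 CPM in the former and 144.6 CPM in the latter, and ACTA2 at 542.6 and 188.8 CPM. FLT1 was the reverse, at 401.7 and 1374.9 CPM, as was VWF, at 155.0 and 537.0 CPM. In the deeper band the 9 nuclei with a CCN2 UMI held 23 of the 25 DCN UMIs. PDGFRB and RGS5 were not higher in nuclei with CCN2, with 70.5 and 106.2 CPM for PDGFRB and 7.05 and 147.5 CPM for RGS5 in the upper band with and without it.

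Among inhibitory-like nuclei CCN2 was concentrated in cluster 4, which has CALB1, LYPD6 and the somatostatin gene SST among its leading genes. It held 41 of 63 CCN2 UMIs of the class in the upper band against 24 of 35 in the deeper band. Its level was 15 CPM (10.8 to 20.4) and 14.7 CPM (9.40 to 21.8), and 10.8% and 10.1% of its nuclei had a UMI. The intervals overlapped between bands, in contrast to vascular-like nuclei. Cluster 0, led by LRRC38 and MYO18B, had 5.64 CPM (3.34 to 8.92) and 3.49 CPM (1.59 to 6.62). Cluster 13, led by COCH and MCTP2, had 1 and 0 UMIs.

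Co-detection, a UMI of 2 of the genes in the same excitatory nucleus, was rare. In the upper band 72 nuclei had CCN2, 58 had NXPH4 and 236 had NR4A2. NXPH4 and NR4A2 were found together in 5 nuclei, where independence gives 4.30. CCN2 and NXPH4 were found together in 4 against 1.31, and CCN2 and NR4A2 in 6 against 5.34. Only 1 nucleus, in subcluster 3, had all of them.

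In the deeper band 38 nuclei had CCN2, 49 had NXPH4 and 245 had NR4A2. NXPH4 and NR4A2 were found together in 11 nuclei against 3.48, a log2 odds ratio of 1.97 (0.83 to 2.99). Thinned to 5000 UMIs per nucleus it was 2.01 (-0.41 to 3.80), an interval that spans 0. CCN2 and NXPH4 were found together in 1 nucleus against 0.539, CCN2 and NR4A2 in 4 against 2.70, and no nucleus had all of them. The log2 odds ratio of NXPH4 and NR4A2 in the upper band was 0.24 (-1.45 to 1.58), and the difference between bands was not tested.

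The excess of NXPH4 with NR4A2 in the deeper band lay in subcluster 3, which held 10 of the 11 nuclei. Stratified into 10 classes of depth the log2 odds ratio was 2.03, close to the unstratified 1.97, and the 11 nuclei had a median depth of 10149 UMIs against 10401 for all. Stratified by subcluster it was 0.46, with 9.39 nuclei expected. Inside subcluster 3, 10 nuclei had both where independence gives 8.60, a log2 odds ratio of 0.48 (-1.07 to 1.98). Outside it 1 nucleus had both, where 1.52 are expected. In the upper band subcluster 3 held 4 of the 5 nuclei with both, the number independence gives there, 4.00. For CCN2 with NR4A2, independence within subclusters gives 7.91 nuclei in the upper band and 5.06 in the other, above the 6 and 4 counted.

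**Figure D5:**
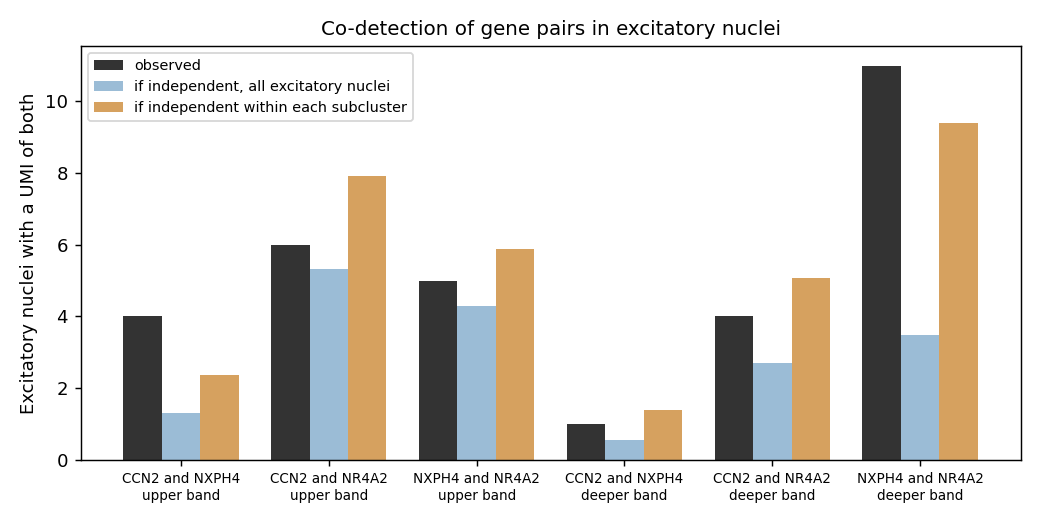
Number of excitatory nuclei with a UMI of both genes of a pair, by band: counted (black), given by independence over all excitatory nuclei (blue) and given by independence within each subcluster (orange). NXPH4 with NR4A2 in the deeper band stands at 11 against 3.48 and 9.39.

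UMIs per positive nucleus were few. The highest NXPH4 count in an excitatory nucleus was 5 in the upper band against 3 in the deeper band. Of the nuclei with at least 2 NXPH4 UMIs, 8 of 8 in the upper band against 7 of 7 in the deeper band lay in subcluster 3 or 10. For NR4A2 43 and 45 nuclei had at least 2 UMIs, of which subcluster 3 held 8 and 8 and subcluster 20 held 9 and 12. For CCN2 4 and 0 nuclei had 2 UMIs and none had more.

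Among the deep-layer genes, SYT6, HCRTR2 and FOXP2 were higher in excitatory nuclei with an NXPH4 UMI. SYT6, a synaptotagmin of layer 6 neurons, stood at 173.8 CPM in the 58 upper-band nuclei with NXPH4 and at 20.1 CPM in those without. HCRTR2 stood at 66.0 and 34.9 CPM in the upper band and at 226.5 and 30.3 CPM in the 49 deeper-band nuclei with and those without. FOXP2 stood at 99.1 and 34.7 CPM in the upper band and at 59.8 and 7.73 CPM in the deeper band, with and without NXPH4. Other listed genes were not higher: in the upper band NTNG2 stood at 6.95 and 34.8 CPM, VWC2L, a near-projecting gene, at 71.2 and 178.1 CPM, and FEZF2 at 29.5 and 34.1 CPM.

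The other subplate and layer 6b genes were lower in deeper-band excitatory nuclei more often than higher. Of the 10 with at least 50 UMIs, 4 were at least 1.5-fold lower, 1 was higher, and the median log2 ratio was -0.45, where all 15553 genes gave -0.03 and shares of 7.68% and 4.2%. SEMA3E was lowest at -1.48 (-1.53 to -1.42), and MOXD1 (-0.91), TMEM163 (-0.69) and CDH18 (-0.60) were the others past 1.5-fold. TRH was highest at 1.46 (0.74 to 2.24) on 22 and 62 UMIs. HCRTR2 had -0.09 (-0.21 to 0.02). In subcluster 3 itself SEMA3E stood at 1023.9 and 1093.9 CPM, so the lower level lay in other excitatory nuclei.

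Corticothalamic genes had a median of -1.06 over 7 genes, with 4 at least 1.5-fold lower and 0 higher, from FOXP2 at -2.07 to CRYM at 0.38. Near-projecting genes had -0.82 over 5, with 3 lower, from HTR2C at -1.36 to TSHZ2 at 0.34. The layer 5 extratelencephalic genes FEZF2 and BCL11B had -2.18 and -1.16. The claustrum and layer 6 intratelencephalic list had a median of 0.06 over 6 genes, with 1 higher, OPRK1 at 0.68, and LXN lowest at -0.25. The shares over all 15553 genes were 7.68% lower and 4.2% higher.

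The relatives of the members behaved in their own ways. NXPH2 was lower in the deeper band: excitatory nuclei had 137.7 and 30.1 CPM, and the log2 ratio was -2.20 (-2.29 to -2.10), the lowest of the 3 families. NXPH3 had -0.17 (-0.70 to 0.36), but in subcluster 3 it had 1 UMI in the upper band against 20 in the deeper band. NXPH1 had 5 and 3 UMIs. Of the CCN family, CCN4, a secreted relative, was higher at 1.29 (0.64 to 1.98), with 7 and 22 of its 28 and 70 UMIs in subcluster 3. CCN5 was lower at -0.90 (-1.10 to -0.70), CCN1 had 0.03 (-0.32 to 0.38), CCN3 0.31 (-0.11 to 0.73), and CCN6 21 and 20 UMIs.

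NR4A1 and NR4A3, the activity-induced receptors, were both lower but within 1.5-fold, at -0.44 (-0.58 to -0.31) and -0.40 (-0.53 to -0.27), while NR4A2 was at 0.10. In subcluster 3 NR4A3 stood at 69.5 and 90.9 CPM against 30.1 and 21.1 CPM in excitatory nuclei outside subclusters 3, 10 and 20. NR4A1 was not raised there, at 24.7 and 12.3 CPM against 27.4 and 20.3 CPM. Of the immediate early genes, 9 had enough UMIs, with a median of 0.33, 3 higher by at least 1.5-fold and 0 lower. Of all 15553 genes, 4.2% were higher and 7.68% lower by that measure. EGR2 was highest at 1.25 (0.64 to 1.90) and NR4A1 lowest. NPAS4 and FOS stood at 0.17 (-0.07 to 0.42) and 0.33 (0.03 to 0.62). Of the YAP and TEAD targets listed beside CCN2, 4 had enough UMIs, with a median of -0.19, AMOTL2 being lowest at -0.76 (-1.11 to -0.41) and AMOTL1 highest at 0.23.

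The binding partners of the encoded proteins were measured as well. NRXN2, which encodes an alpha-neurexin as well as a beta form, had a log2 ratio of 0.09 (0.03 to 0.16). RXRA, RXRB and RXRG, which encode the retinoid receptors that pair with NR4A2, had -0.17 (-0.62 to 0.28), 0.01 (-0.12 to 0.15) and 0.31 (-0.06 to 0.69). Of the CCN2 receptors, LRP1 had -0.07 (-0.16 to 0.01) and the integrin subunit ITGAV -0.75 (-0.87 to -0.63).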

How the data were processed

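Raw UMI counts, as whole numbers by gene and barcode, were deposited by the authors per the file headers; the barcode and gene tables hold names only. Cell Ranger is named without a role, in versions 6.2.1 and 2.1.1, per the submitters' processing notes. The aligner, genome build, annotation, strand use and treatment of intronic reads are not given in the sources used here. Symbols come from the deposited gene tables. CCN2, NXPH4, NR4A2 and all gene lists were chosen with earlier results of these data known.

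Nuclei with at least 500 genes were kept, and Scrublet (scanpy 1.11.5) at its automatic threshold removed 830 upper-band (11.7%) and 1458 deeper-band (15.2%) nuclei as doublets. These held many member UMIs: with those under 500 genes, 21.3% and 31.0% of CCN2, 18.1% and 23.6% of NXPH4, and 21.4% and 36.3% of NR4A2. Both libraries were clustered together with 2000 variable genes, 30 principal components, 15 neighbours and Leiden resolution 1 (igraph 0.11.9, Python 3.11.15), with the members left out of the variable genes except in 1 alternative. Excitatory nuclei were subclustered in the same way. No integration or free-RNA correction was applied. Clusters were named from marker lists when at least 3 markers reached 1/3 of their highest level in at least 10% of nuclei. A cluster with 5 or more markers of another class at 2 times the level of the rest, or whose top 10 genes held more of another class's markers than of its own, stayed unnamed. Subclusters needed a lead of 2 markers over the other layer class, and glial, inhibitory and vascular markers counted among their top 10 genes. That subcluster rule was set after the subclusters had been seen. Clusters 11, 18 and 20 of all nuclei stayed unnamed.

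Within each library, UMIs of a class were added up and given as CPM. Sums carry exact Poisson, shares exact binomial (Clopper-Pearson), level ratios exact conditional binomial and share ratios Katz intervals, all at 95%. Nuclei are not replicates and each band has 1 library, so no test was made. Named genes are the 5 closest to each member among those with at least 100 UMIs (some are not reported here), list genes with at least 50 excitatory UMIs or placed by a count in a subcluster, and the members' families. The leading genes of subclusters and the vascular and glial markers named were picked after their values were seen. The functions were tested on simulated counts. Alternatives changed doublet removal, the gene minimum, resolutions, scaling, thinning and strata.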

Additional observations from a re-analysis of the deposited data

How the results depend on the processing

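No paired analysis was possible because each band had 1 library, and for the same reason no replicate could be left out. Over 27 results and 159 alternative values, 150 stayed inside the main 95% interval, 9 left it and 0 of the values whose main interval was clear of 0 reversed. The excitatory CCN2 ratio ranged from -1.11 to -0.89 over its 8 alternatives and stayed past 1.5-fold. Without doublet removal the excitatory share of NXPH4 UMIs was 76.6% in the upper and 66.3% in the deeper band, and that of NR4A2 67.6% and 59.4%; the cause was not tested. Thinning to 5000 UMIs put the NR4A2 share ratio at 0.23 and the log2 odds ratio of NXPH4 with NR4A2 in the upper band at 2.18, on 4 nuclei with both, and the cause was not tested. That of CCN2 with NR4A2 in the deeper band was 1.49 (0.24 to 2.57) without doublet removal, an interval clear of 0, against 0.63 (-1.34 to 2.14). Strata by subcluster put the odds ratio of NXPH4 with NR4A2 in the deeper band at 0.46. With no UMI minimum the median of the other subplate and layer 6b genes was -0.53, since 12 genes entered in place of 10. Among alternatives added after seeing the data, the best match of subcluster 3 at subcluster resolution 2 held 55.7% of its nuclei and gave a share ratio of 0.56 between bands (95% interval -0.00 to 1.13); its other matches gave -0.09 to 0.14. Subclusters made without members, marker or list genes kept 183 of its 185 nuclei together. Without the deeper-band nucleus with the most NR4A2 UMIs the NR4A2 ratio of subcluster 7 was 0.91 (-0.21 to 2.28). Depth limits CCN2 and NXPH4, since most subclusters held under 5 UMIs of each.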
